A study of Mus musculus with 4 samples.

Results

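Transcripts of the Notch receptors Notch1, Notch2, Notch3 and Notch4, of the ligands Jag1, Jag2, Dll1 and Dll4, and of the target genes Hes1 and Hey1 were measured in mouse peritoneal mesothelial cells. These 10 genes were taken by symbol, and all 10 were present in the deposited table of 48425 genes. The mesothelium is the cell layer that covers the peritoneal cavity. The series holds 1 group: cells freshly isolated from 4 wild-type (WT) C57BL/6 mice aged 10 weeks, whose sex is not stated, with 1 RNA library per animal. The cells were released by trypsin and EDTA in the rinsed cavity at 37 °C for 20 min. The sort gate kept cells that lacked the leukocyte antigen CD45 and carried podoplanin (Pdpn) and Gpm6a, and ribosomal RNA was removed before library preparation. The sort defines the cells by surface antigens, and no undigested tissue or second condition was analysed here, so levels are described within and between the 4 animals.

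Notch receptors are membrane proteins that bind Delta-like and Jagged ligands carried by neighbouring cells. Binding opens the receptor to an ADAM metalloprotease and then to gamma-secretase, which frees the intracellular domain. That domain enters the nucleus, joins the DNA-binding protein Rbpj and a Mastermind coactivator, and switches on genes that include the Hes and Hey repressors. In blood vessels Notch4 and Dll4 are best known from endothelium and Notch3 from the mural cells around it.

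Library totals ranged from 4090224 to 4569578 estimated counts, and levels are given as CPM (counts-per-million of the library total), as mean ± SD with n = 4 animals. With 3 counts as the floor for a gene at 0, a single library resolves 0.657 to 0.733 CPM and the 4 libraries together 0.171 CPM. Floors cover counting error only. All 10 mesothelial marker genes were above 1 CPM, with a summed level of 15056 to 17022 CPM per animal. That list includes Gpm6a (2206 CPM) and Pdpn (1094 CPM), for which the cells were sorted, so the sort in part set this outcome. Fibroblast markers were above 1 CPM for 7 of 8 genes, with sums of 3403 to 6959 CPM. The collagen genes Col3a1, Col1a2 and Col1a1 supplied most of these sums, with means of 2741, 1141 and 1040 CPM. Means of the other fibroblast markers ran from 1.55 CPM for Pi16, which did not pass, to 107 CPM for Mfap5. Leukocyte markers passed for 0 of 8 genes in edgeR and for 0 in limma with voom weights (1 at an unadjusted p under 0.05 by edgeR). Their sum was 15.0 CPM in animal 1 and 1.51 to 2.98 CPM in the other animals. The leukocyte list includes Ptprc, the gene of CD45, against which the cells were sorted, so its outcome was likewise set in part. Each level was tested against 1 CPM with edgeR's quasi-likelihood F test, one-sided, with Benjamini-Hochberg adjustment over all 48425 genes and a threshold of 0.05. Of the 10 Notch genes, 4 lay above 1 CPM (Notch2, Jag1, Dll1 and Hes1), which is 40%, against 24.7% of all genes in the table. The median of the 10 mean levels was 1.42 CPM and the median over the table was 0 CPM. The same 4 genes passed without any 1 animal. In RNA from many cells, fewer cells of a type and less RNA per cell cannot be told apart.

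**Figure D1:**
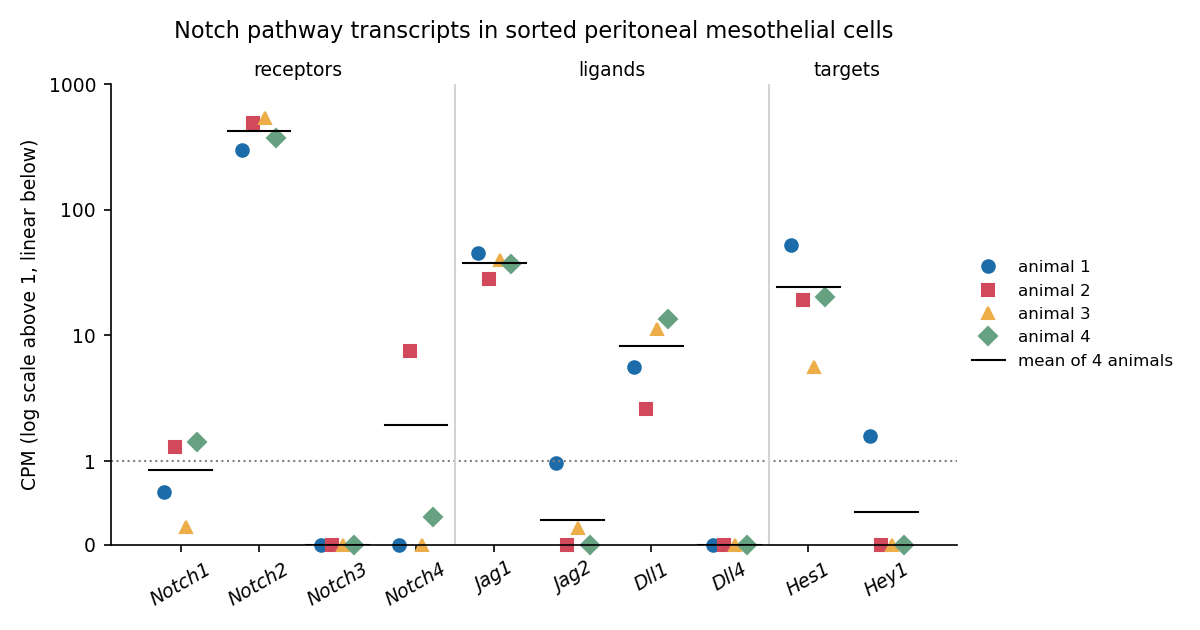
Level of each Notch gene in CPM (vertical axis, logarithmic above 1 and linear below) in each of 4 animals (symbols), with the mean as a bar and 1 CPM as a dotted line. Notch2 lies between 299 and 534 CPM, Jag1, Dll1 and Hes1 between 2.57 and 52.8 CPM, and Notch3 and Dll4 at 0 in every animal.

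Among the receptors nearly all transcripts were Notch2. Notch2, a receptor with broad developmental roles, lies on chromosome 3 at 98013527 to 98150361 on the plus strand (GRCm38, as are all gene positions here). It had 299, 489, 534 and 375 CPM in animals 1 to 4, a mean of 424 ± 107 CPM. Every animal lay within 1.78-fold of every other, and 99.3% of the genes in the table had a lower mean. Its level was above 1 CPM (adjusted p = 4.18e-32 by edgeR over all genes, 9.52e-06 by limma with voom weights). Divided by the length of the longest annotated transcript, 10500 bases, Notch2 stood at 28.5, 46.6, 50.8 and 35.7 CPM per kilobase in animals 1 to 4.

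Notch1, the receptor best known from T cell development, lies on chromosome 2 at 26457903 to 26516663 on the minus strand. It had 0.632, 1.30, 0.208 and 1.43 CPM in animals 1 to 4, from 0.946 to 5.84 estimated counts per library. Its mean of 0.893 ± 0.575 CPM did not pass (adjusted p = 0.997 by edgeR). Of the runs of 31 bases in Notch1 transcripts, 9.40% also occur in transcripts of other genes, among them the antisense gene 0610009E02Rik. That gene had 16.4, 13.3, 7.63 and 10.4 counts, more than Notch1 in each animal. The sources used here do not say whether the libraries kept strand, so reads of Notch1 and of its antisense partner cannot be told apart where they overlap.

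Notch4 lies on chromosome 17 at 34564268 to 34588503 on the plus strand. It had 0, 7.46, 0 and 0.331 CPM in animals 1 to 4. Animal 2 held 32.6 of its 34.0 counts, and the mean of 1.95 ± 3.68 CPM did not pass (adjusted p = 0.467 by edgeR). Without animal 2 the fitted level was 0.0773 CPM. None of the runs of 31 bases in Notch4 transcripts occur in another gene. Endothelial markers summed to 45.9, 70.3, 35.6 and 63.4 CPM in animals 1 to 4, and Kdr, which encodes a VEGF receptor, supplied 41.0, 66.3, 34.8 and 54.9 CPM of it. Of the 12 endothelial markers, 2 passed by edgeR (Kdr and the angiopoietin receptor gene Tek), which is 16.7% against 24.7% of the table. By limma with voom weights 1 passed. Tek had 1.57, 0.602, 0.579 and 7.80 CPM in animals 1 to 4 (adjusted p = 0.0417 by edgeR). Cdh5, Flt1, Emcn, Cldn5, Erg and Sox17 were at 0 in every animal. Pecam1 had 1.69, 1.83, 0.239 and 0 CPM.

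Notch3, on chromosome 17 at 32120820 to 32166852 on the minus strand, had no count in any animal. With the longest transcript as length, the floor of 3 counts over the group bounds it at 0.0213 CPM per kilobase. On that scale the level of Notch2 was at least 1899-fold higher, and the bound would be smaller with mean transcript lengths. The antisense gene that overlaps Notch3 had no count either. Mural markers, a list of 10 that includes Notch3 itself, passed for 6 genes (60%, against 24.7% of the table). Their sums were 225, 133, 179 and 120 CPM. Acta2, the smooth muscle actin gene, had 152, 60.6, 107 and 64.2 CPM, and Tagln, another smooth muscle gene, 43.1, 7.92, 9.27 and 14.3 CPM. Of genes known from pericytes, Kcnj8 had 26.8 ± 14.0 CPM, Pdgfrb 4.53 ± 2.11 CPM and Cspg4 4.17 ± 0.787 CPM and passed, while Rgs5 had 0.171 ± 0.341 CPM and Abcc9 1.90 ± 2.34 CPM and did not.

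With the longest transcripts as length, Notch2 made up 99.8%, 97.3%, 99.96% and 99.4% of the summed receptor level in animals 1 to 4. The mean was 99.1 ± 1.21%. Notch4 reached 2.36% in animal 2, and Notch1 ranged from 0.0431% to 0.419%. Within animals, the log2 length-scaled level of Notch2 (with 0.5 CPM added before the division) exceeded that of Notch1 by 7.90, 7.94, 9.41 and 7.46, a mean of 8.18 ± 0.85. Notch2 was higher in each of the 4 animals (exact two-sided permutation of signs, p = 0.13, the smallest that 4 animals can give). With mean transcript lengths the mean log2 difference was 6.30, and the shares above change with the length as well. Notch4 and Notch1 were not ordered: the log2 difference was -0.65, 2.67, 0.02 and -0.69 in animals 1 to 4, a mean of 0.34 ± 1.59 (exact permutation p = 0.875), and its sign turned with the pseudocount and the length used.

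**Figure D2:**
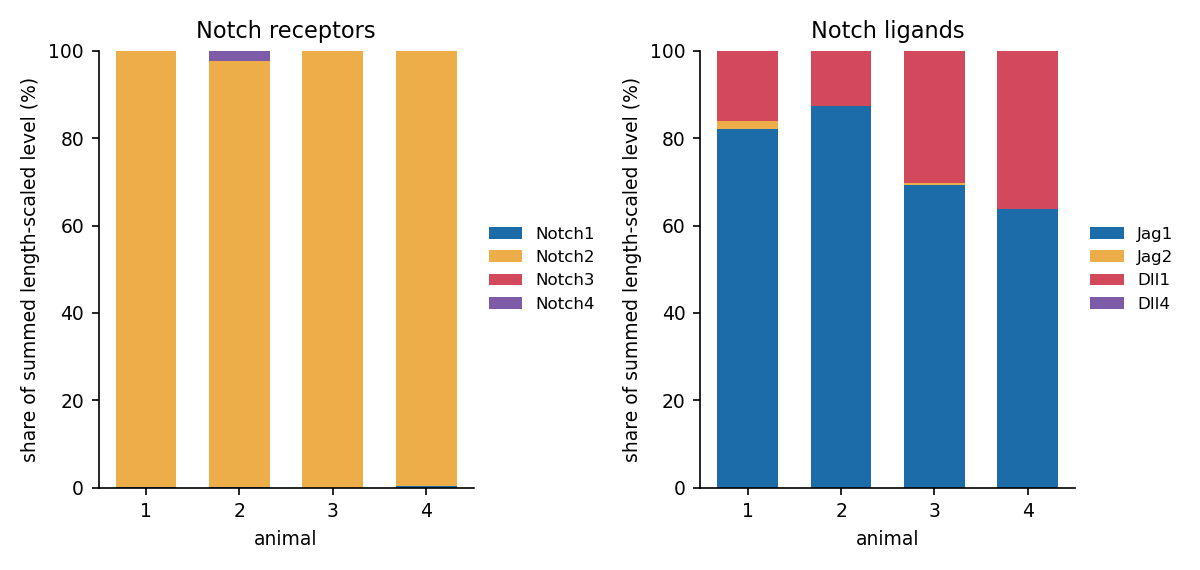
Share of each gene in the summed length-scaled level (vertical axis, percent) of the 4 receptors (left) and of the 4 ligands (right) in animals 1 to 4. Notch2 fills at least 97.3% of the receptor bars, while Jag1 takes 63.7% to 87.5% of the ligand bars and Dll1 most of the remainder.

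The promoters of the receptor with the highest level and of the receptor with no count are shown side by side, from 250 bases before to 50 after the start site annotated by RefSeq (GRCm38.p6). They are read 5′ to 3′ on the strand of the gene, at chr3:98013288-98013587 (plus) for Notch2 and chr17:32166841-32167140 (minus) for Notch3. Capitals mark CpG dinucleotides.
Notch2: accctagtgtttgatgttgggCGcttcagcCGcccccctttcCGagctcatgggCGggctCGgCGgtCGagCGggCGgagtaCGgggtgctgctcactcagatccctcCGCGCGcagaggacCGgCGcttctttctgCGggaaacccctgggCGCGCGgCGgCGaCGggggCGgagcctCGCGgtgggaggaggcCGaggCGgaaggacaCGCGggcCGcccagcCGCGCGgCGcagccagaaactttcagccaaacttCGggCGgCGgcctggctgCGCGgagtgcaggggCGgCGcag
Notch3: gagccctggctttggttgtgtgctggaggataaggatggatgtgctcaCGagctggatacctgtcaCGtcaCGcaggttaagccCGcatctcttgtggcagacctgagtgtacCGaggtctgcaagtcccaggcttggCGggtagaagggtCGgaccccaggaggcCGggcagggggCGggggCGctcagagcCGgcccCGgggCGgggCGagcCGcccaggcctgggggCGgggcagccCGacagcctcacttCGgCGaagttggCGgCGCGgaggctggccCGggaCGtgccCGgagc
The Notch2 window holds 41 CpGs and the Notch3 window 25, against a median of 7 over 32851 promoters of the same length. As many or fewer CpGs were found in 97.0% of these promoters for Notch2 and in 83.1% for Notch3. Both windows hold more CpGs than the median promoter. A relation of CpG number to level was not tested.

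Of the ligands, Jag1 and Dll1 were above 1 CPM and Jag2 and Dll4 were not. Jag1, the ligand altered in Alagille syndrome in humans, lies on chromosome 2 at 137081456 to 137116644 on the minus strand. It had 45.0, 28.1, 39.9 and 37.0 CPM in animals 1 to 4, a mean of 37.5 ± 7.07 CPM (adjusted p = 7.02e-21 by edgeR). The 4 animals lay close together, within 1.60-fold. None of the runs of 31 bases in Jag1 transcripts occur in another gene.

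Dll1, a Delta-like ligand with roles in somite patterning, lies on chromosome 17 at 15367354 to 15376872 on the minus strand. It had 5.61, 2.57, 11.1 and 13.4 CPM in animals 1 to 4, a mean of 8.19 ± 4.99 CPM (adjusted p = 3.67e-09 by edgeR). Animals 3 and 4 were high and animal 2 low, a range of 5.22-fold. The overlapping antisense gene A930024N18Rik holds 17.9% of the runs of 31 bases in Dll1 transcripts and had 4.93, 0, 1.21 and 8.31 counts, against 25.6, 11.3, 50.8 and 55.0 for Dll1.

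Jag2 had 0.980, 0, 0.199 and 0 CPM in animals 1 to 4, from 5.39 counts in all, and lies on chromosome 12 at 112907819 to 112929776. Dll4, on chromosome 2 at 119325784 to 119335962, had no count in any animal. Against the group floor, and with the longest transcripts, the length-scaled level of Jag1 was at least 147-fold higher than that of Dll4. For Dll1 it was at least 50.3-fold higher. Jag2 and Dll4 were at or under the floor of single libraries in at least 3 of 4 animals.

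Per unit of length, Dll1 stood at 1.57, 0.719, 3.11 and 3.75 CPM per kilobase and Jag1 at 8.01, 5.01, 7.11 and 6.60 CPM per kilobase in animals 1 to 4. The Dll1 range lay below the Jag1 range. On the same scale the log2 difference of Dll1 minus Jag1 was -2.25, -2.57, -1.15 and -0.78, a mean of -1.69 ± 0.86, lower in all 4 animals (exact permutation p = 0.13). In limma over 14810 genes set against Jag1, Dll1 was lower with an adjusted p = 0.00271, as were 48% of the genes in that fit, so the call says nothing particular to Dll1. All differences in the fit share the Jag1 values, so its genes are not independent. With the mean transcript length in place of the longest, the difference was -0.77 and did not pass (adjusted p = 0.0762 by limma). With that length the ranges of Dll1 and Jag1 overlapped, and Dll1 was not lower in animal 4. Jag2 minus Jag1 was -5.58 ± 0.55 on this scale, a value that depends on the pseudocount.

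The promoters of Jag1, the ligand with the highest level, and of Dll4, the ligand with no count, are given in the same way, at chr2:137116471-137116770 (minus) and chr2:119325534-119325833 (plus) in GRCm38.p6. Capitals again mark CpG dinucleotides.
Jag1: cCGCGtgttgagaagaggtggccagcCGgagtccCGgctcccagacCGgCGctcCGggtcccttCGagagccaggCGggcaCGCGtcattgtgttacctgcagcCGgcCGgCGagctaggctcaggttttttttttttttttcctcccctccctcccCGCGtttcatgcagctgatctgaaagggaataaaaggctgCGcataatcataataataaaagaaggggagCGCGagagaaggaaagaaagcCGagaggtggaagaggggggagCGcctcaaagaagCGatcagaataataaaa
Dll4: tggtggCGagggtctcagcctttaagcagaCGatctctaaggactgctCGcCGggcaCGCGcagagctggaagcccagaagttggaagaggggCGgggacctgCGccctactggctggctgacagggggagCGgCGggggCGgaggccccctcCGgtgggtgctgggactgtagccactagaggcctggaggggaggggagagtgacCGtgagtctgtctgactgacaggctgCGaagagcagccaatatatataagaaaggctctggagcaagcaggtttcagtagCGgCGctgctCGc
Jag1 holds 22 CpGs in this window and Dll4 17, and 78.5% and 70.3% of promoters hold as many or fewer. RefSeq promoters were matched for 8 of the 10 Notch genes, 9 windows in all, and Hes1 and Hey1 were not matched. The motif TGGGAA, the core of the sequence bound by Rbpj, was searched on both strands (TTCCCA on the other). It occurs in 25.6% of all promoters and in 0 of the 9 windows, which says only that these letters are not there.

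The target Hes1 was expressed in every animal and differed more between animals than the receptor and the ligands above 1 CPM. Hes1, a transcriptional repressor that Notch induces in many tissues, lies on chromosome 16 at 30064384 to 30067796 on the plus strand. It had 52.8, 19.2, 5.58 and 20.0 CPM in animals 1 to 4, a mean of 24.4 ± 20.0 CPM (adjusted p = 1.19e-14 by edgeR). Animal 1 was highest and animal 3 lowest, 9.45-fold apart, and animals 2 and 4 lay together between them. Without animal 1 the fitted level was 14.9 CPM, against 24.4 CPM with it. Animal 1 also had the highest leukocyte sum (15.0 CPM) and the highest mural sum (225 CPM). Acta2 (152 CPM) and Tagln (43.1 CPM) supplied most of that mural sum. The mural markers Kcnj8 (11.7 CPM), Pdgfrb (2.93 CPM) and Cspg4 (2.99 CPM) were instead lowest in animal 1. The part of leukocyte and mural markers in the Hes1 level was not tested.

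Hes1 can also be induced by stimuli other than Notch, so a list of 10 immediate early genes (Fos, Fosb, Jun, Junb, Egr1, Ier2, Atf3, Dusp1, Nr4a1 and Zfp36) was set beside it, chosen after the Hes1 values were seen. Their sum was 11897, 11942, 10471 and 12591 CPM in animals 1 to 4. Animal 3 was lowest in both, but the sum was highest in animal 4 and Hes1 in animal 1. Fos supplied 3948 to 5382 CPM of the sum. Of the 10 genes, Nr4a1 had the widest spread, with 890, 161, 168 and 462 CPM in animals 1 to 4. No other gene of the list was highest in animal 1, as Hes1 was. Fosb (264 CPM), Jun (822 CPM), Junb (253 CPM) and Dusp1 (645 CPM) were lowest in animal 1. The part of these genes in the Hes1 level was not tested.

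Hey1, a related repressor, lies on chromosome 3 at 8663359 to 8667256 on the minus strand and had 1.57 CPM in animal 1, from 7.18 counts, and 0 in animals 2, 3 and 4. Its mean of 0.393 ± 0.786 CPM did not pass (adjusted p = 0.997 by edgeR). The log2 length-scaled level of Hey1 minus Hes1 was -5.46 ± 0.81, a value set in part by the pseudocount, and lower in all 4 animals (exact permutation p = 0.13). None of the runs of 31 bases in Hes1 or Hey1 transcripts occur in another gene.

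The SD of log2(CPM + 0.5) over animals was 1.28 for Hes1, larger than for 99.6% of the 500 genes nearest to it in mean level, whose median SD was 0.41. It was 0.99 for Dll1, larger than for 89.8% of its nearest genes, and 0.38 for Notch2, larger than for 81.4%. Jag1 had an SD of 0.28, larger than for 41.2%. These percentages describe the 4 libraries and carry no test.

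**Figure D3:**
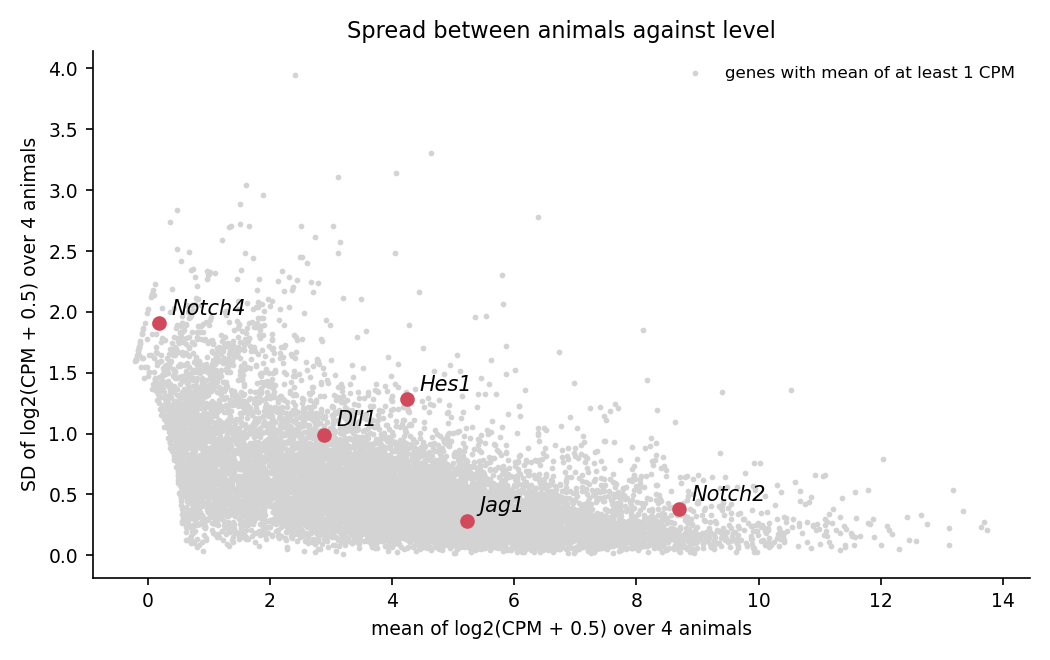
SD of log2(CPM + 0.5) over 4 animals (vertical axis) against its mean (horizontal axis) for all genes with a mean of at least 1 CPM (grey) and for the 5 Notch genes among them (red). Hes1, at an SD of 1.28, lies at the upper edge of the genes of its level, and Jag1, at 0.28, within them.

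The genes above 1 CPM did not share an order of animals. Notch2 was lowest in animal 1 and highest in animal 3, and Hes1 was highest in animal 1 and lowest in animal 3. The length-scaled ratio of Notch2 to Hes1 was therefore 0.792, 3.56, 13.4 and 2.62 in animals 1 to 4. Fibroblast markers, mostly collagen genes, summed to 4108, 6959, 6091 and 3403 CPM in animals 1 to 4. These sums were lower in animals 1 and 4 than in animals 2 and 3, as Notch2 was. Their part in the Notch2 level was not tested. Jag1 and Dll1 were both lowest in animal 2. The ratio of Notch2 to Jag1 was 3.55, 9.30, 7.15 and 5.41, above 1 in every animal. With 4 animals no correlation was computed.

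**Figure D4:**
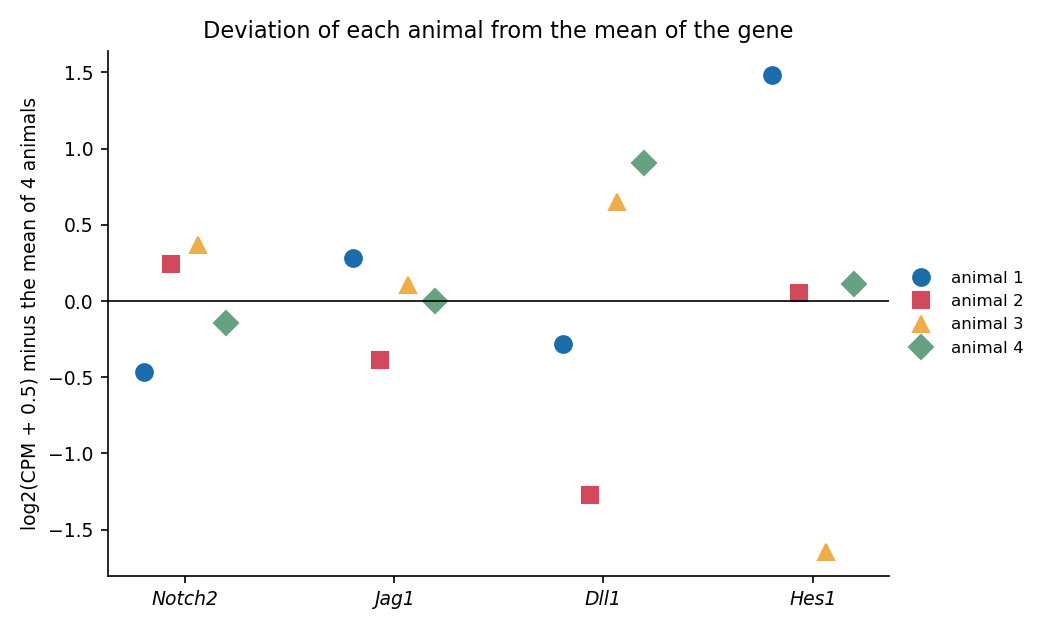
Log2(CPM + 0.5) of each animal minus the mean of 4 animals (vertical axis) for Notch2, Jag1, Dll1 and Hes1, with 1 symbol per animal. Animals 1 and 3 lie on opposite sides of the mean for Notch2 and for Hes1, in opposite order, and the Hes1 points spread widest.

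By mean length-scaled level the order was Notch2 (40.4 ± 10.2 CPM per kilobase), Hes1 (16.6 ± 13.7), Jag1 (6.68 ± 1.26), Dll1 (2.29 ± 1.39), Notch4 (0.296 ± 0.558), Hey1 (0.162 ± 0.324), Notch1 (0.0941 ± 0.0606) and Jag2 (0.0578 ± 0.0914), with Notch3 and Dll4 at 0. Of neighbours in this order, only Jag1 and Dll1 had ranges that did not overlap, which holds for the longest transcripts and not for mean lengths. Notch2 exceeded Hes1 in 3 of 4 animals and Hes1 exceeded Jag1 in 3 of 4. The 4 genes that follow Dll1 overlapped one another and keep no firm order.

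By the root mean square difference of centred log2 levels over 4 animals, the genes most like Notch2 among 8791 others with a mean of at least 10 CPM were Gspt1 (0.0191), Arhgef1 (0.0209) and Medag (0.0300). Those most like Jag1 were Rpl19-ps11 (0.0189), Tpgs2 (0.0317) and Pdxk (0.0325). Within 0.1 log2 lay 122 genes for Notch2 and 123 for Jag1. For Hes1 the nearest were Kyat3 (0.336), Prr15l (0.352) and Mre11a (0.388), and 0 genes lay within 0.1. The measure is not scaled by SD, and the SD of Hes1 was large, so the Hes1 values in part restate its spread. With 4 animals such likeness is a description.

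The wider machinery of the pathway was present. Of 57 other pathway genes, 42 were above 1 CPM by edgeR, which is 73.7% against 24.7% of the table. The median level of the 57 genes was 15.5 CPM. The share of 24.7% also stands beside the count of each list below, and its table includes 25489 genes with no count in any animal. Genes that process the receptor were above 1 CPM for 10 of 10. The ADAM metalloprotease genes Adam10 and Adam17, whose products cut the receptor outside the membrane, had 128 ± 28.2 CPM and 45.2 ± 4.19 CPM. The gamma-secretase genes included Ncstn (nicastrin) at 257 ± 26.6 CPM, Psenen at 90.9 ± 6.40 CPM and Psen2 at 37.8 ± 3.72 CPM. Aph1a, Aph1b and Aph1c stood at 36.7, 10.45 and 9.90 CPM, and Furin, which cleaves the receptor in the Golgi, at 49.6 ± 8.60 CPM. Adam10 had 100.4, 167, 124 and 119 CPM in animals 1 to 4, a narrower range than that of Hes1.

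All 7 genes of the nuclear complex passed. Rbpj had 100.4, 48.1, 79.1 and 77.9 CPM in animals 1 to 4, highest in animal 1 and lowest in animal 2. Of the Mastermind coactivators, Maml2 stood at 111 ± 32.3 CPM, Maml1 at 8.42 ± 1.43 CPM and Maml3 at 2.81 ± 1.85 CPM (adjusted p = 0.0139 by edgeR). By limma with voom weights 6 of the 7 passed. Snw1, a splicing factor that binds the complex, had 195 ± 29.8 CPM, and the acetyltransferase genes Kat2b and Ep300 had 30.7 ± 10.4 CPM and 10.3 ± 4.44 CPM.

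Corepressor genes passed for 10 of 10, led by Hdac1 at 124.5 ± 19.5 CPM and Tle5 (listed under its older symbol Aes) at 73.7 ± 18.2 CPM. Tle1, a partner of Hes proteins, had 17.2, 3.76, 7.03 and 3.50 CPM in animals 1 to 4 and was highest in animal 1, as Hes1 was. Its relative Tle3 had 11.5, 37.5, 45.1 and 16.8 CPM and was lowest in animal 1.

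Of 5 genes that add sugars to the receptor, 4 passed by edgeR and 3 by limma with voom weights. Poglut1, a glucosyltransferase, had 48.9 ± 8.51 CPM and the fucosyltransferase gene Pofut1 9.55 ± 2.72 CPM. Of the Fringe genes, which change how the receptor responds to Delta and Jagged ligands, Rfng had 8.96 ± 1.48 CPM, and Mfng was at 0 (values below 1e-06 counts taken as 0). Lfng had 4.06, 0.777, 7.09 and 5.53 CPM in animals 1 to 4. It was lowest in animal 2, as were Dll1, Jag1, Rbpj and several other genes of these lists. Others, among them Adam10, Numb and Hes6, were highest in animal 2. How many genes of the whole table were lowest in animal 2 was not counted.

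In the list for endocytosis and turnover 10 of 13 passed. The ubiquitin ligase gene Nedd4 had the highest level of all pathway genes, at 1033 ± 186 CPM. Mib1, whose product ubiquitinates the ligands, had 54.4 ± 10.7 CPM, and Numb, an inhibitor of the receptor, 60.8 ± 18.4 CPM. Of the Deltex genes Dtx3, Dtx2 and Dtx4 had 77.9, 37.8 and 33.7 CPM, whereas Dtx1 had 0.172 CPM. Neurl1b had 3.47, 0.308, 4.25 and 0.710 CPM and did not pass.

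Of 8 further targets and feedback inhibitors 5 had no count in any animal, as had 25489 of the 48425 genes of the table. In this list 1 gene passed, which is 12.5% against 24.7% of the table. It was Hes6, a Hes family member that opposes Hes1, with 8.65, 23.9, 10.7 and 16.2 CPM in animals 1 to 4. Hes3, Hes5, Hey2, Heyl and the feedback inhibitor Nrarp were at 0 in every animal, Hes2 had 0.955 counts and Hes7 7.59 counts in all. Of 4 other ligands and ligand-like genes none passed by edgeR, 0 by limma with voom weights and 0 at an unadjusted p under 0.05. Dlk1 had 1.61 ± 0.999 CPM, Dll3 0.131 ± 0.0877 CPM, and Dlk2 and Dner were at 0.

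**Figure D5:**
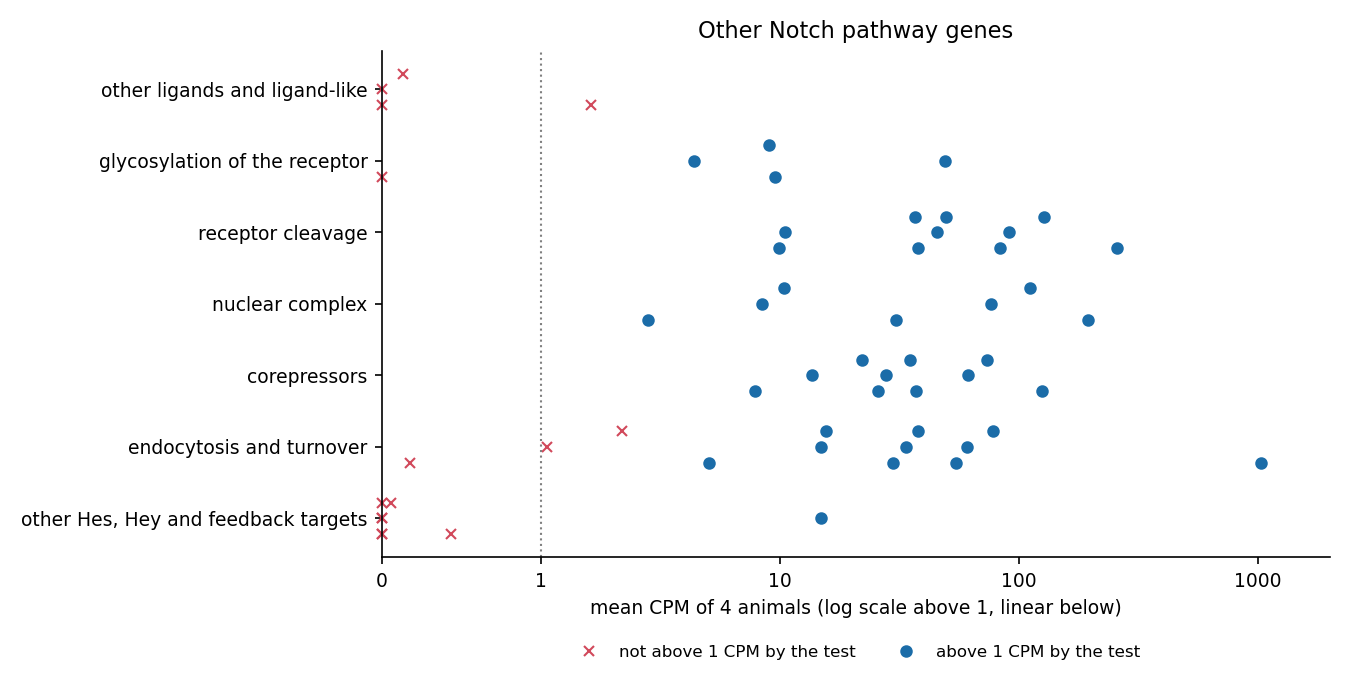
Mean level in CPM over 4 animals (horizontal axis, logarithmic above 1 and linear below) of 57 other Notch pathway genes by group, with genes above 1 CPM by edgeR as circles and the others as crosses. Receptor cleavage, nuclear complex and corepressor genes all lie above 1 CPM, and most further targets lie at or near 0.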

How the data were processed

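The authors deposited 1 table of estimated counts per gene, 1 column per animal, for 48425 gene symbols. Tools listed in the submitters' processing notes are kallisto 0.43.1, limma 3.38.3 and edgeR 3.24.3, with the build GRCm38.p5 and no roles. The summing of transcripts to genes and the strand setting are not given in the sources used. Estimated counts keep transcript length and depend on how shared reads were split.

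CPM are estimated counts over the column total. Counts were rounded for edgeR 4.0.16 (R 4.3.3), with column totals as offsets and an intercept-only design. The quasi-likelihood statistic against 1 CPM was computed from fitted and null deviances and tested on simulated data. Lengths are the longest transcript per symbol in GENCODE M21 (47597 genes matched). Differences between genes were taken within animals on log2((CPM + 0.5) per kilobase), for genes with at least 10 counts in limma 3.58.1. In the fit against Notch1, whose few counts enter every difference, limma's prior degrees of freedom were infinite, so no p from it is given, and the exact sign-flip permutation test stands instead. Chi-square per gene between libraries was 10.7 to 26.2, so all 4 were kept as replicates, which the study describes as separate animals.

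The genes, lists and tests were chosen with earlier results of these data known. All members and any gene of the pathway lists could be named (the value of 1 pathway gene is not reported here), and for the receptor, ligand and target with the highest level the 3 most like genes. Alternatives were TMM and DESeq2 1.42.0 scaling, a filter on low counts, voom weights, other levels, pseudocounts and lengths, and leaving out each animal.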

Additional observations from a re-analysis of the deposited data

Results flagged for a closer look

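Dixon's ratio, the gap of the most distant animal divided by the range of the 4 values, exceeded its 95% critical value for 9 of 67 genes examined (the 10 Notch genes and 57 other pathway genes). Chance flags about 1 gene in 20. Of the 67 genes, 10 had no count in any animal and cannot be flagged, and a gene with counts in 1 animal has a ratio of 1 by construction, as Hey1 and Hes2 do. Among genes with counts in at least 2 animals, 7 of 55 Notch and pathway genes (12.7%) were flagged, against 1345 of 18482 genes of the table (7.28%); the difference was not tested. Of the 9 flagged genes, Notch4 and Hey1 were Notch genes. Notch4 had a ratio of 0.956 through animal 2 (7.46 CPM) and Hey1 a ratio of 1.00 through animal 1 (1.57 CPM). Of well-expressed pathway genes, Psenen had a ratio of 0.891 (81.4 CPM in animal 2, 93.3 to 94.7 CPM in the others), Spen 0.853 (41.0 CPM in animal 3, 18.7 to 21.9 CPM in the others) and Cir1 0.834 (11.4 CPM in animal 2, 24.5 to 27.1 CPM in the others). Neurl1a had a ratio of 0.915 (3.31 CPM in animal 2, at most 0.474 CPM in the others). Dll3, Dtx1 and Hes2 had ratios of 0.887, 0.893 and 1.00 from 2.30, 2.98 and 0.955 counts in all.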

How the results depend on the processing

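The number of Notch genes above 1 CPM was 4 under every alternative but 1. At a level of 0.5 CPM Notch4 also passed (adjusted p = 0.0305 by edgeR). The adjusted p of Notch2, Jag1, Dll1 and Hes1 depended on the genes kept and on the test. By edgeR over genes with at least 10 counts it was 7.05e-15 for Notch2, 2.95e-11 for Jag1, 5.86e-06 for Dll1 and 1.33e-07 for Hes1. By limma with voom weights it was 9.52e-06, 1.81e-05, 0.00992 and 0.00540 in the same order. Pathway genes above 1 CPM numbered 41 to 43 when each animal was left out. Without division by length, 4 of 8 positions in the order were kept. Notch4 minus Notch1 turned to -0.45 with a pseudocount of 0.1 CPM, to -0.21 with mean transcript length and to -0.19 without length. Dll1 minus Jag1 was -0.77 with mean transcript length (adjusted p = 0.0762 by limma), where it lost its call, and -1.99 to -1.39 when each animal was left out. Jag2 minus Jag1 was -7.14 and -4.80 with pseudocounts of 0.1 and 1 CPM and -4.07 with mean length, and Hey1 minus Hes1 was -7.24 with 0.1 CPM. A change of pseudocount or length moves these values by construction. Notch3 and Dll4, at 0 throughout, were given bounds and no difference. These bounds use the longest transcripts and change with the length used. Genes under 3 counts cannot be told from 0 at this depth. No paired analysis was possible because the series has 1 group and so no groups to pair. The within-animal differences above are between genes.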
